A study of Mus musculus with 8 samples.

Results

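A set of 10 immediate early genes was followed in mouse retinal organoids that lose METTL3, which methylates adenosines of messenger RNA to N6-methyladenosine (m6A). They were chosen by name, as AP-1 subunits, EGR1 and genes usually induced with them: Fos, Fosb, Jun, Junb, Jund, Egr1, Ier2, Atf3, Btg2 and Zfp36. All 10 were found among the 35494 loci of the 1 h table. The cells carried a GFP reporter at Rx, a transcription factor gene of the eye field, and an FKBP12F36V-HA tag at the C-terminus of METTL3 from both alleles; controls carried both as well. The tag lets the small molecule dTAG-13 send the protein to the proteasome. Day 6 organoids were grown in GMEM with KSR and the compound labelled AGN and received 125 nM dTAG-13. The 8 samples of polyadenylated RNA formed 4 groups of 2 replicates, at 0 h (untreated), 1 h, 8 h and 24 h. The labels do not say whether the 0 h samples received solvent, whether the line is a single clone, or whether the replicates were separate cultures. A 2 h treatment named in the protocol was not analysed here.

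Immediate early genes are transcribed within minutes of a stimulus, without new protein synthesis, because the factors that bind their promoters (SRF with its TCF partners, and CREB) are already present and are switched on by kinases. Their messengers are short-lived, often through AU-rich elements in the 3′UTR. FOS and JUN proteins pair to form AP-1, which binds DNA at TGANTCA sites. FOS proteins cannot pair with themselves and need a JUN partner, whereas JUN proteins can also pair with each other. EGR1 is a zinc-finger factor of GC-rich sites. ATF3 is a stress-induced bZIP factor, BTG2 recruits deadenylases, ZFP36 (TTP) binds AU-rich elements and speeds decay of messengers, and IER2 is a short nuclear protein. In the retina, FOS and EGR1 are widely used as marks of recent stimulation.

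Each deposited table pairs 1 treated time with 0 h and gives 1 value per locus and condition, with both replicates pooled by the authors. The spread between replicates is therefore not visible, and no p-value was computed. Levels are in FPKM, fragments per kilobase of transcript scaled for depth, so they can be compared between genes, and each is followed by its deposited interval in brackets. A locus with at least 1 FPKM in either condition was called where the ratio of the FPKM values, after adding 0.1 to each, reached 1.5-fold in either direction and the intervals were apart. A log2 ratio is given with 1 SD propagated from the deposited count variances. The estimated counts of a condition totalled 3.13615e+07 to 3.25621e+07. All 7 retinal progenitor markers used (Rax, Six3, Six6, Lhx2, Pax6, Sox2, Otx2) exceeded 1 FPKM, and so did all 5 pluripotency markers, among them Pou5f1 at 34.7 FPKM at 0 h. Bulk samples do not tell fewer cells of a type from less RNA per cell.

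Most calls among the 10 genes fell at 8 h. Fos was called higher at 1 h, Fos, Fosb, Junb, Jund and Egr1 at 8 h, and none at 24 h, when Ier2 was called lower. At 1 h, 1 of the 10 was called higher, against 0.117% of 13690 loci, and none lower, against 0.285%. At 8 h, 5 of 10 were called higher, against 3.49% of 13825 loci, and none lower, against 0.94%. Fosb, 1 of these 5, passed the level filter only through the treated condition. At 24 h, none of 9 that passed the level filter was called higher, against 3.83% of 13910 loci, and 1 was called lower, against 1.65%. Over all 10 genes, log2 ratios had medians of 0.29 (1 h), 0.50 (8 h) and 0.09 (24 h), beside 0.01, 0.01 and 0.02 over all tested loci. The 3 comparisons share the 0 h samples. The 10 genes were chosen with earlier results of these data known, so the shares called are a description.

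**Figure D1:**
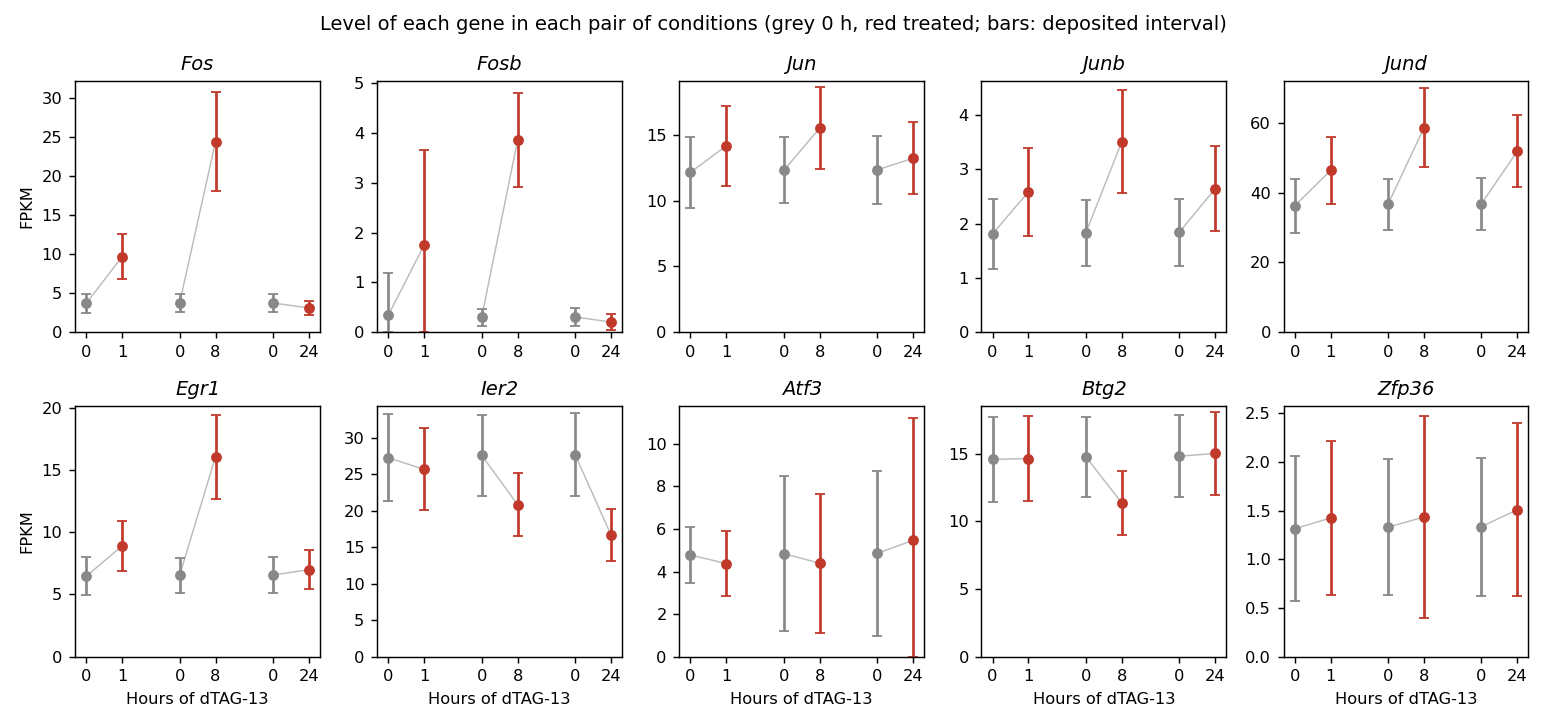
Each panel plots the FPKM of 1 gene (vertical axis, from 0, scaled per gene) at 0 h (grey) and after 1, 8 or 24 h of dTAG-13 (red), in pairs from the same table, with the deposited interval as a bar. Fos, Fosb, Junb, Jund and Egr1 at 8 h and Fos at 1 h stand above the 0 h interval, and Ier2 at 24 h stands below it.

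Fos encodes the prototype FOS subunit and lies on the plus strand at chr12:85473890-85477273 (GRCm38), with 4 coding exons. Its level was 3.68 FPKM (2.42 to 4.94) at 0 h and 9.69 (6.79 to 12.6) at 1 h, from 203 and 540 estimated counts. In the 8 h table it was 3.73 (2.54 to 4.91) at 0 h and 24.5 (18.1 to 30.8) at 8 h, from 206 and 1339 counts. In the 24 h table it was 3.74 (2.55 to 4.93) at 0 h and 3.10 (2.16 to 4.05) at 24 h. Both early times lay wholly above the 0 h interval, while 24 h overlapped it. The log2 ratios were 1.37 ± 0.27, 2.68 ± 0.25 and -0.26 ± 0.27, the called ones being 2.59-fold at 1 h and 6.42-fold at 8 h. Among loci with at least 20 estimated counts summed over both conditions, Fos ranked 11 from the top of 13200 at 1 h and 5 of 13344 at 8 h. The 1 h and 8 h intervals did not overlap, nor did those of 8 h and 24 h, though these values come from separately scaled tables.

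Fosb, the closest paralog of Fos among the 10, lies on the minus strand at chr7:19302696-19310051 and also has 4 coding exons. It was the lowest of the 10 genes at 0 h. Its level was 0.304 FPKM (0.133 to 0.474) at 0 h and 3.86 (2.91 to 4.80) at 8 h, from 34.2 and 529 estimated counts. The intervals were far apart, and the log2 ratio of 3.29 ± 0.41 (9.81-fold) ranked 3 of 13344 loci. With 0.01 FPKM added in place of 0.1 the log2 ratio was 3.62, and that of the estimated counts was 3.95. At 1 h the values were 0.341 (0 to 1.20) and 1.75 (0 to 3.66), from 36.6 and 205 counts, and these intervals overlapped. The log2 ratio of 2.07 ± 1.84 was therefore not called. In the 1 h table the locus is a merged span of 167162 bases that overlaps 6 other expressed loci (Vasp, Eml2, Opa3, Rtn2, Gpr4 and Ppm1n), whose own log2 ratios ranged from -0.40 to 0.11. At 24 h the level was 0.203 (0.0426 to 0.363) against 0.305 (0.129 to 0.480), below the level filter. Fosb passed that filter at 1 h and 8 h only through the treated condition.

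The JUN genes, each with a single coding exon, had smaller ratios. Jund is mostly a constitutive subunit and was the highest of the 10 genes in every condition. It lies at chr8:70698949-70700616 on the plus strand. Its level was 36.2 FPKM (28.5 to 43.9) at 0 h and 46.4 (36.7 to 56.1) at 1 h. At 8 h it was 58.6 (47.3 to 70.0) against 36.7 (29.4 to 43.9), and at 24 h 51.9 (41.6 to 62.2) against 36.8 (29.4 to 44.2). Jund was called at 8 h alone, 1.60-fold higher, with 2756 estimated counts against 1724. Its log2 ratios were 0.36 ± 0.22, 0.68 ± 0.20 and 0.49 ± 0.20, and the 8 h and 24 h intervals overlapped. The antisense gene Gm11175 overlaps Jund and had 3.21 FPKM at 8 h, with a log2 ratio of 0.85 that was not called; no source used here states that counting was stranded, so reads of the pair may be shared.

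Junb, an inducible subunit that can restrain JUN, was low. Its expressed locus lies at chr8:84976910-84978718 on the minus strand. The level was 1.84 FPKM (1.23 to 2.44) at 0 h and 3.51 (2.56 to 4.46) at 8 h, from 95.1 and 182 estimated counts. The log2 ratio was 0.90 ± 0.31 (1.87-fold), and the call was narrow, since only 0.116 FPKM separated the intervals. At 1 h the level was 2.59 (1.77 to 3.40) against 1.81 (1.17 to 2.45), and at 24 h 2.65 (1.87 to 3.43) against 1.84 (1.23 to 2.45). These intervals overlapped, and the log2 ratios were 0.49 ± 0.34 and 0.50 ± 0.32.

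Jun, the strongest activator of the 3 JUN genes, lies at chr4:95049034-95052222 on the minus strand and was not called at any time. Its level was 14.2 FPKM (11.1 to 17.2) at 1 h, 15.5 (12.4 to 18.6) at 8 h and 13.2 (10.5 to 16.0) at 24 h. At 0 h it was 12.2 (9.48 to 14.8), 12.3 (9.79 to 14.8) and 12.3 (9.78 to 14.9) in the same tables. All 3 pairs of intervals overlapped, with log2 ratios of 0.22 ± 0.22, 0.33 ± 0.21 and 0.10 ± 0.21. A change of this size was not detectable at this precision. In each table the locus measured for Jun is a merged span of 118285 bases, which overlaps no other locus that reached 1 FPKM.

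**Figure D2:**
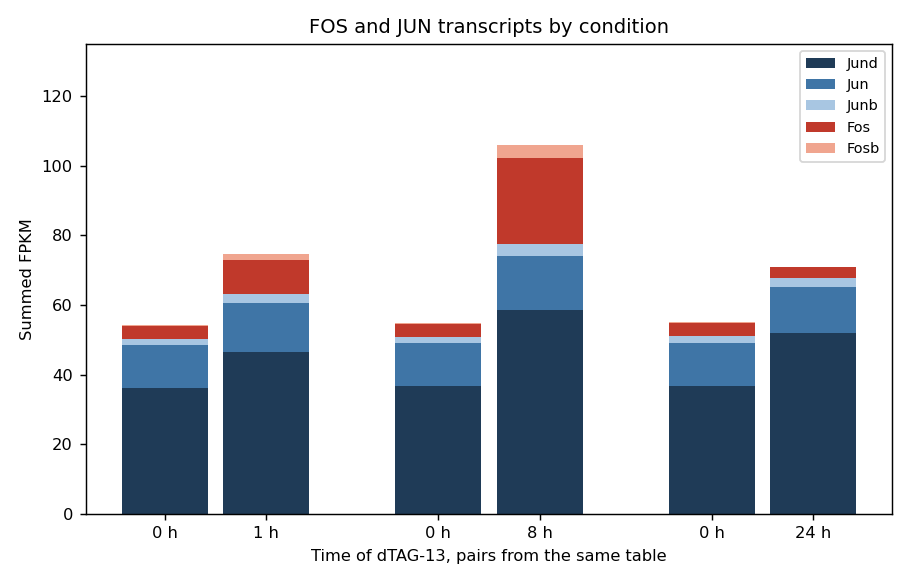
Stacked bars give the summed FPKM (vertical axis, from 0) of Jund, Jun, Junb, Fos and Fosb at 0 h and after dTAG-13, in pairs from the same table. The sum is 54.8 FPKM at 0 h and 106 at 8 h, and the red part, Fos and Fosb, is tallest at 8 h.

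The make-up of the AP-1 transcripts differed between times. In the 8 h table, Fos and Fosb together had 4.03 FPKM at 0 h beside 50.8 FPKM of the JUN genes, and 28.3 beside 77.7 at 8 h. Fos and Fosb thus made up 7.35% of the summed FPKM at 0 h (4.19 to 11.7 from the ends of the intervals) and 26.7% (18.4 to 36.4) at 8 h. At 1 h the share was 15.3% (8.12 to 24.7) against 7.42% (3.80 to 13.5), and these ranges overlapped. At 24 h it was 4.65% (2.63 to 7.56) against 7.35% (4.17 to 11.8). Jund held most of the JUN part, 72.2% at 0 h and 75.5% at 8 h. Fosl2, another FOS gene that is outside these sums, had 1.33 FPKM at 0 h and 1.18 at 8 h and was not called. Protein was not measured.

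Egr1, with 2 exons, lies on the plus strand at chr18:34859823-34864984. Its level was 6.54 FPKM (5.11 to 7.97) at 0 h and 16.1 (12.7 to 19.4) at 8 h, from 657 and 1625 estimated counts. The 8 h interval lay above that of 0 h, and the log2 ratio was 1.28 ± 0.22 (2.43-fold), rank 81 of 13344. At 1 h the level was 8.91 (6.89 to 10.9) against 6.46 (4.94 to 7.97), and at 24 h 6.99 (5.44 to 8.55) against 6.56 (5.11 to 8.01). Neither was called, with log2 ratios of 0.46 ± 0.23 and 0.09 ± 0.22. As for Fos, the 8 h interval did not overlap that of 1 h or of 24 h.

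Ier2 took another course. It lies at chr8:84661331-84662852 on the minus strand and has 1 exon. The level was 25.7 FPKM (20.1 to 31.3) at 1 h against 27.3 (21.3 to 33.2), and 20.8 (16.5 to 25.2) at 8 h against 27.6 (22.0 to 33.2). At 24 h it was 16.7 (13.1 to 20.3) against 27.7 (22.0 to 33.4), from 690 and 1149 estimated counts. The 24 h interval alone lay below that of 0 h. The log2 ratios were -0.09 ± 0.22, -0.40 ± 0.21 and -0.73 ± 0.22, the last being 1.65-fold lower.

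Atf3, Btg2 and Zfp36 were not called at any time. Btg2 lies at chr1:134075170-134079120 on the minus strand. It had 14.7 FPKM (11.5 to 17.8) at 1 h against 14.6 (11.4 to 17.7), 11.4 (9.03 to 13.7) at 8 h against 14.8 (11.8 to 17.7), and 15.0 (12.0 to 18.1) at 24 h against 14.8 (11.8 to 17.9). Its log2 ratio at 8 h was -0.38 ± 0.21. Zfp36, at chr7:28376784-28380253 on the minus strand, had 1.31 to 1.33 FPKM at 0 h and 1.42, 1.43 and 1.51 at 1, 8 and 24 h. Its log2 ratios were 0.11 ± 0.57, 0.10 ± 0.64 and 0.17 ± 0.58, so these wide errors allow moderate changes; its locus overlaps Med29. Atf3, at chr1:191170296-191218039 on the minus strand, had 4.38 FPKM (2.87 to 5.88) at 1 h against 4.78 (3.46 to 6.10). At 8 h it had 4.40 (1.13 to 7.66) against 4.84 (1.19 to 8.49), and at 24 h 5.47 (0 to 11.2) against 4.86 (0.987 to 8.73). The intervals for Atf3 were wider at the later times, where its locus is merged with those of neighbours into 285564 bases.

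**Figure D3:**
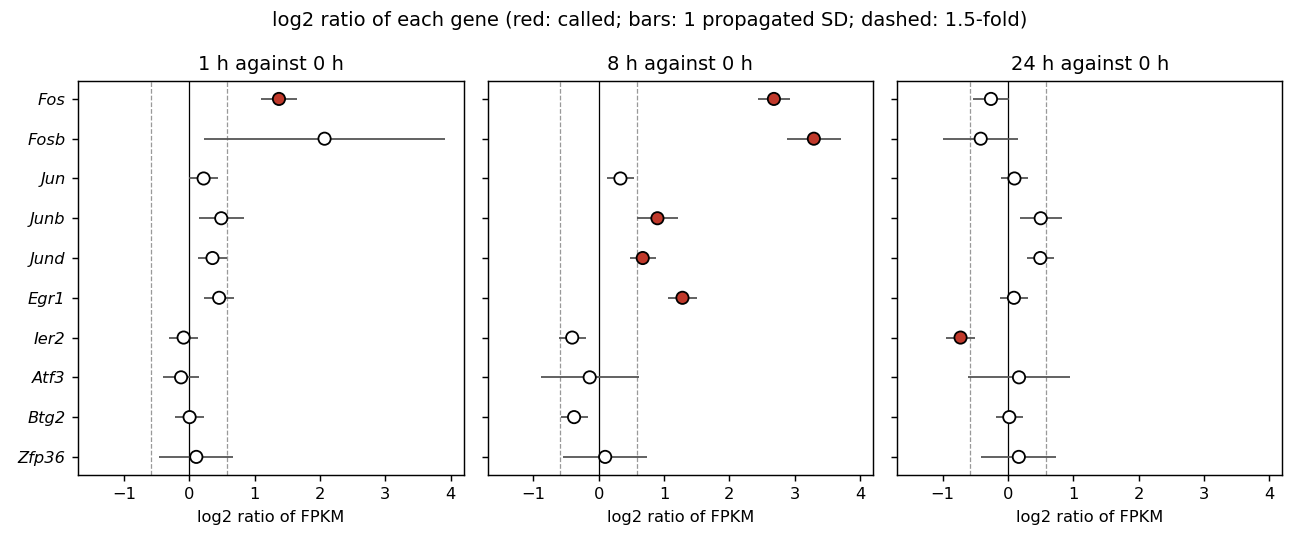
Points give the log2 ratio of FPKM (0.1 added) against 0 h for each of the 10 genes, 1 panel per time, with bars of 1 propagated SD; red points were called and dashed lines mark 1.5-fold. Called genes are Fos at 1 h (1.37), 5 genes at 8 h (0.68 to 3.29) and Ier2 at 24 h (-0.73).

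The order of the levels also differed. At 0 h in the 8 h table it ran Jund 36.7 FPKM, Ier2 27.6, Btg2 14.8, Jun 12.3, Egr1 6.54, Atf3 4.84, Fos 3.73, Junb 1.84, Zfp36 1.33 and Fosb 0.304. Neighbouring intervals were apart between Ier2 and Btg2, Jun and Egr1, Fos and Junb, and Zfp36 and Fosb, and overlapped elsewhere. At 8 h Jund stayed first with 58.6 FPKM. Fos moved from place 7 to place 2, but its interval overlapped that of Ier2, the next in order. Fosb moved from place 10 to place 8, between Atf3 and Junb, with overlapping intervals on both sides. At 24 h Fos was again at place 7.

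**Figure D4:**
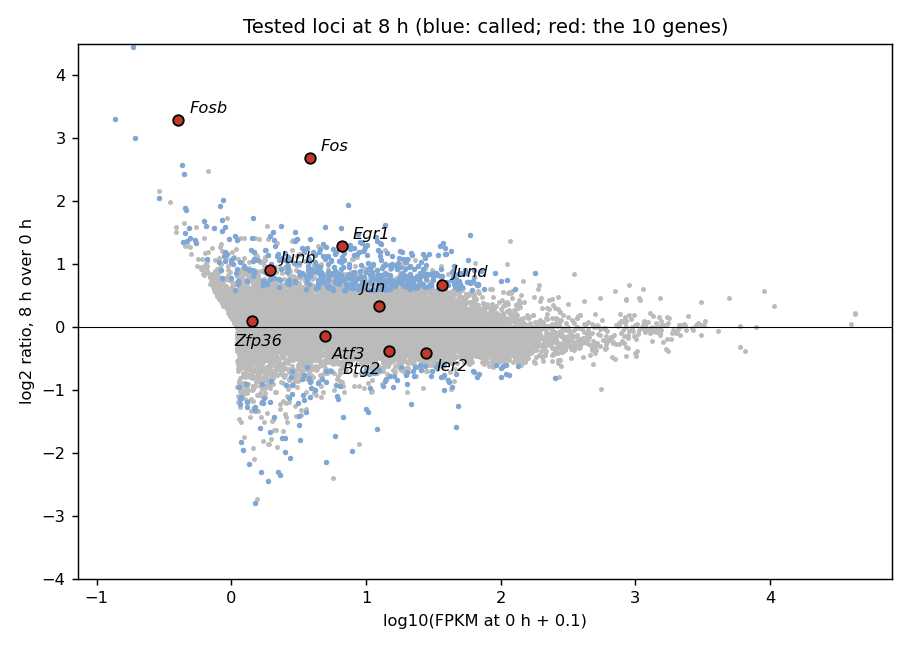
Each point is a tested locus at 8 h, placed by log10 of its FPKM at 0 h with 0.1 added (horizontal axis) and by its log2 ratio (vertical axis); called loci are blue and the 10 genes are red and named. Fosb (3.29) and Fos (2.68) lie near the upper edge, Egr1, Junb and Jund lie among the called loci, and the other 5 lie among the uncalled.

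The promoters of the 4 genes below are shown because 3 of them rose at 8 h (Fos, Fosb and Junb) while Btg2 did not, and all 4 hold TGACG, the core of the CREB/ATF site. Sequences are RefSeq's for GRCm38.p6, from 250 bases before to 50 after the start of the transcript, on the sense strand. Capitals mark TGACG (with TCA where it is complete) and TATAAA. The windows are chr12:85473640-85473939 for Fos, chr7:19309996-19310295 for Fosb, chr8:84978699-84978998 for Junb and chr1:134079106-134079405 for Btg2.
Fos: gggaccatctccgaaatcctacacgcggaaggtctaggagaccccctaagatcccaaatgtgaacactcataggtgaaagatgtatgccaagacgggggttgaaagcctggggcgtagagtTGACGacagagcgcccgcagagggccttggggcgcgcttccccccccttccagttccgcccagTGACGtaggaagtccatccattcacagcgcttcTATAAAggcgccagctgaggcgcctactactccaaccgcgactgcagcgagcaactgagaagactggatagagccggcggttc
Fosb: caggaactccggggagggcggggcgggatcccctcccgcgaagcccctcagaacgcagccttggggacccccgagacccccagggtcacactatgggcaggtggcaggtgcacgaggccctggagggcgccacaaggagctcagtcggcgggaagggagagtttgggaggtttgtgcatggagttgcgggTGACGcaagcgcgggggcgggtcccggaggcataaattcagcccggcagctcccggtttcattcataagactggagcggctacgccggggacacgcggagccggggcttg
Junb: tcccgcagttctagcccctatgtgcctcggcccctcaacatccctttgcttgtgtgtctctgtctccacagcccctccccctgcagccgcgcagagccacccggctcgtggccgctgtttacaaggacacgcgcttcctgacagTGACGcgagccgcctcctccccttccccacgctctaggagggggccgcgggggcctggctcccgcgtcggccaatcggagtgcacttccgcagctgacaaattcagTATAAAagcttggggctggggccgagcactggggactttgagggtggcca
Btg2: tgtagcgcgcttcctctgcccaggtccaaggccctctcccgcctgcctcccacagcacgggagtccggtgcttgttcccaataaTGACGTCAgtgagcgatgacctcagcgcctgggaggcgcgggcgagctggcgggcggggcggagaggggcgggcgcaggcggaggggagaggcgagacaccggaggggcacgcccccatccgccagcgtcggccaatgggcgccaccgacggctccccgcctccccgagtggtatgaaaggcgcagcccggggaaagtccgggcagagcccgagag

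In these windows Fos has 2 copies of TGACG, 129 and 66 bases before the start, Fosb 1 at 60 bases and Junb 1 at 106. RefSeq windows were found for 8 of the 10 genes, and on either strand TGACG occurred in 5 of them (these 4 and Atf3), against 20.8% of 32851 windows in all. The palindrome TGACGTCA, which contains TGACG on both strands, occurred in Btg2 alone among the 8, 166 bases before the start, and in 1.79% of all windows. TATAAA, searched on the sense strand, occurred in Fos, 33 bases before the start, and in Junb, beginning at the RefSeq start itself. It occurred in 8.32% of all windows. The EGR motif GCGNGGGCG occurred on either strand in Btg2, Fosb and Zfp36 (5.55% of all), the AP-1 motif TGANTCA in none of the 8 (7.81% of all), and the CArG box of SRF in Zfp36 (1.63% of all). Sites more than 250 bases before the start were not searched, and Egr1 and Ier2 had no window. Absence from a window is thus not absence from the gene. RefSeq and GENCODE start sites lay within 35 bases of each other for Fos, Fosb, Jun, Junb and Btg2. For Junb the GENCODE start was 30 bases downstream of the RefSeq start, from which its distances are given. The sites lay 1025 to 34706 bases apart for Zfp36, Jund and Atf3, whose windows may therefore not be the promoter in use. A motif match is a description, and binding was not measured.

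ATTTA was used as the mark of AU-rich elements in the 3′UTR. The stretch with most copies is shown for 4 genes. They are the FOS pair and the 2 genes that act on messenger decay, neither of which was called. Each is a stretch of 30 bases of GRCm38, on the sense strand, with ATTTA in capitals: chr12:85477100-85477129 for Fos, chr7:19303326-19303355 for Fosb, chr1:134076017-134076046 for Btg2 and chr7:28376958-28376987 for Zfp36.
Fos: ttgtgttttcaATTTATTTAttaagatgga
Fosb: cccacccccagctATTTAtccctttcctgg
Btg2: aATTTAtttgtagatgtgtgcaatATTTAc
Zfp36: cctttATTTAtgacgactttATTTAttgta

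ATTTA occurred in the 3′UTR of 9 of the 10 genes, Ier2 being without it, against 66.3% of 11167 tested genes with a model. It occurred 4 times in Fos, 4 in Jun, 5 in Btg2 and once in Fosb and in Jund. The Fosb stretch shown is rich in C around its 1 copy, so it is not shown to be an AU-rich element. The longer TATTTAT, which contains ATTTA, occurred in 7 of 10, against 27.9%. Called and uncalled genes both held these letters, Zfp36 having most copies of TATTTAT (3). GGACT, a form of the sequence at which m6A is commonly placed, occurred in all 10 transcripts, against 91.6%. Its density was 1.90 per kilobase in Fos, 1.32 in Fosb, 2.40 in Jund and 3.29 in Ier2, and 9 of 10 genes were above the median of 1.05. Methylation itself was not measured.

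All 10 genes have few exon junctions for their coding length. Jun, Junb, Jund and Ier2 have a single coding exon, and the others ranged from 0.625 junctions per coding kilobase (Egr1) to 3.68 (Atf3), where the median of the tested genes was 6.15. Among genes with a single coding exon, 18.9% of 662 were called higher at 8 h and 20.2% of 664 at 24 h, against 2.96% and 3.14% of genes with more. Lower calls made up 2.87% and 3.01% of them at these times, against 0.59% and 1.42%. At 1 h calls were rare in both classes. None of 648 single-exon genes was called higher, against 0.00964% of 10375 with more, and 0.617% were called lower, against 0.173%. The median log2 ratio of the single-exon genes was 0.38 at 8 h and 0.37 at 24 h. Of the 4 members among them, Junb and Jund were called higher at 8 h, Jun was near the class median (0.33) and Ier2 below 0 (-0.40). Fos and Fosb, with 2.63 and 2.96 junctions per coding kilobase, had larger ratios at 8 h than these 4. At 24 h their ratios were -0.26 and -0.42, where the single-exon class had its median of 0.37. Their densities are also low, with 17.2% and 19.2% of the genes tested at 8 h lower. Whether junction density bears on the ratios of the 10 genes was not tested.

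**Figure D5:**
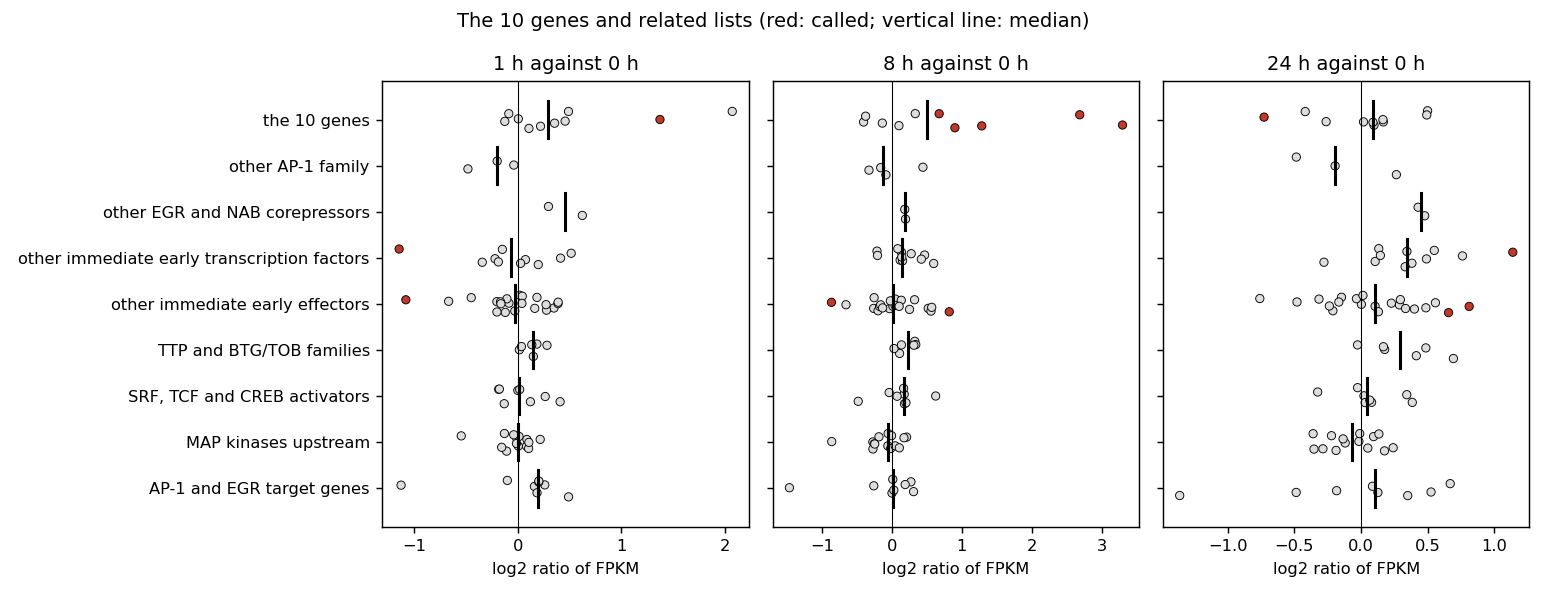
Each point is the log2 ratio of FPKM (0.1 added, horizontal axis) of 1 gene against 0 h, by list (vertical axis) and time (panel); red points were called and the thick vertical marks are list medians. For the 8 related lists only tested genes are drawn; 2 are red at 1 h, 2 at 8 h and 3 at 24 h, while 5 of the 10 genes in the top row are red at 8 h.

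Related genes were taken from 8 lists of 91 genes. At 8 h, 74 were tested, of which 1 was called higher (1.35%, against 3.49% of all loci) and 1 lower (1.35%, against 0.94%), with a median log2 ratio of 0.06. At 1 h, 72 were tested, none was called higher and 2 were called lower (2.78%, against 0.285%). At 24 h, 73 were tested, 3 were called higher (4.11%, against 3.83%) and none lower. With counts this small, the lists are not shown to differ from all loci. Among the other AP-1 family genes, 4 were tested at 8 h and none was called; Fosl1, a FOS relative, was near 0.04 FPKM at 0 h. Of the other EGR genes and their NAB corepressors, only Nab1 and Nab2 reached 1 FPKM, and neither was called. The 8 tested SRF, TCF and CREB genes and the 14 tested MAP kinase genes, the upstream arm, had no call at any time. The same held for the 6 tested relatives of ZFP36 and BTG2, with a median of 0.23 at 8 h. For the upstream arm only transcript levels were seen, and the activity of its kinases and factors was not measured. Some intervals were also wide, as for Srf at 1 h with 14.3 FPKM (1.44 to 27.1) against 10.7 (0 to 21.6). Of 13 listed AP-1 and EGR targets 8 were tested and none was called, with a median of 0.02 at 8 h and 6 above 0. Some were imprecise at 8 h. Tgfb1 had a log2 ratio of -1.46 by FPKM and -0.22 by estimated counts, and Timp1 of 0.27 ± 1.06. The lack of calls therefore does not show that the targets were unchanged.

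The genes called in these lists were Bhlhe40, Ier3, Ier5l and Plk2. Bhlhe40, a bHLH repressor, fell at 1 h from 9.36 to 4.18 FPKM (log2 ratio -1.14) and was higher at 24 h, 21.1 against 9.51 FPKM (1.14); its ratio at 8 h, 0.60, was not called. Ier3, an early gene linked to survival signalling, fell from 6.32 to 2.94 FPKM at 1 h (-1.08), had a ratio of -0.03 at 8 h that was not called, and rose from 6.42 to 11.4 FPKM at 24 h (0.81). Ier5l had a ratio of 0.35 at 1 h that was not called, and rose at 8 h from 12.3 to 21.8 FPKM (0.82) and at 24 h from 12.4 to 19.5 (0.66). Plk2, an activity-induced kinase, fell at 8 h from 13.7 to 7.51 FPKM (-0.86). Its ratios of -0.12 at 1 h and -0.48 at 24 h were not called.

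Patterns were compared among 10868 genes tested at all 3 times, with at least 50 estimated counts in every condition. The gene whose 3 log2 ratios were nearest to those of Fos was Egr1, at a Euclidean distance of 1.71. Rmst followed at 1.79. Cd200 (1.99), Raph1 (2.02) and Rnf182 (2.02) came next. None of these 5 was close to Fos, since their log2 ratios at 8 h were 0.96 to 1.28, against 2.68 for Fos. Fosb is left out by the count minimum and, at 24 h, by the level filter. It lay nearer to Fos, at 0.941, but its log2 ratios at 1 h (2.07 ± 1.84) and 24 h (-0.42 ± 0.58) are imprecise. Rmst, a long noncoding RNA, had 0.43, 1.28 and -0.86 at 1, 8 and 24 h. Nearest to Egr1 were Cd200 (0.429), Slc18b1 (0.429), Rnf182 (0.438), Klf8 (0.440) and Gm31793 (0.460). Cd200 had log2 ratios of 0.58, 0.96 and 0.34, and Klf8 of 0.16, 1.08 and 0.34. Their ratios at 24 h were above that of Egr1 (0.09). The ratios of a gene share its 0 h value, so these distances are a description.

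No marker of the cells present was called at 1 h or 8 h. At 24 h Rax and Lhx2 were called higher, and Dppa5a and Tdgf1, markers of pluripotent cells, lower. The summed level of the 7 retinal progenitor markers was 646 FPKM at 0 h and 817 at 8 h, and 648 and 873 in the 24 h table. The 5 pluripotency markers summed to 298 and 263 FPKM at 8 h, and to 299 and 191 at 24 h. Most of the latter difference is Dppa5a, from 200.4 to 109 FPKM, while Zfp42 had log2 ratios of 0.26 at 8 h and 0.18 at 24 h and Nanog of -0.01 and -0.13, none of them called. At 1 h, when Fos was called, the sums were 637 and 689 FPKM for the retinal progenitor markers and 294 and 319 FPKM for the pluripotency markers. Of 6 endoderm and mesoderm markers 2 reached 1 FPKM, their sum being 3.87 at 0 h and 5.78 at 8 h, and 3 of 4 fibroblast markers did, at 13.4 and 12.0. Of 3 blood markers only Cd68 reached 1 FPKM, with Ptprc at 0 at 0 h. Dcx, the only neuronal marker with a value here, was at 0.262 FPKM at 0 h. The planned neuronal markers Tubb3, Elavl3 and Neurod1 gave no value, so the share of neurons is not known. The part of these shifts in the results for the 10 genes was not tested.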

How the data were processed

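Polyadenylated RNA of 8 samples was sequenced as paired-end reads, per the labels, which give all samples the same batch entry. Cufflinks 2.2.1, Cuffdiff and mm10 are named in the submitters' processing notes. The authors deposited FPKM values bracketed by interval ends, and estimated counts with a variance, in 1 table of each kind per treated time, each scaled on its own with 0 h. Both have 1 column per condition, pooled over replicates, per the file headers. The level of the interval is not given in the sources used here. The interval of a locus is the precision available for its value.

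Ratios were formed within tables, with Python 3.11.15, numpy 2.4.6 and pandas 2.3.3, as log2 of FPKM plus 0.1, which understates changes of low genes. Columns pooled over replicates allow no count model, so no p-value is given. Where a symbol occurs at several loci (Junb), the one with most counts was used. Gene models are GENCODE M21 (GRCm38); promoters are RefSeq GRCm38.p6. The 10 genes, the 8 lists and the rules were chosen with earlier results of these data known. The text names all 10 genes, each called gene of the lists, at most 6 per list and time, and the 5 genes nearest to Fos and to Egr1. Markers and overlapping loci are named as context, and Zfp36 and Btg2 relatives are counted without names. Alternatives were the added value, the level filter, the fold, the intervals, estimated counts in place of FPKM, and centring. A planned retinal marker is not reported here and is left out of the marker sums.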

Additional observations from a re-analysis of the deposited data

How the results depend on the processing

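Of 240 single-gene values under the 8 alternatives, 231 kept direction and call, 5 lost the call, 1 gained it and 3 reversed. The number of the 10 genes called at 1 h was 2 by the fold criterion without intervals, which adds Fosb. At 8 h it was 3 with a filter of 5 FPKM (Fos, Jund and Egr1) and 3 with a 2-fold threshold (Fos, Fosb and Egr1), and at 24 h it was 0 with the 2-fold threshold. The reversed values lie near 0 or rest on a merged locus: Btg2 at 1 h (-0.0001633) and at 24 h (-0.0006655) after centring on the table median, and Atf3 at 24 h by estimated counts (-0.19). For Atf3 the cause was not tested. Of 48 summary values, counts of called genes and medians over all 10 genes, 44 stayed within the limits set. Changing the level filter, the fold or the use of intervals cannot alter a median or a direction. Agreement under those settings was therefore fixed in advance, except for the calls. No paired analysis was possible because the deposited columns pool the replicates, and for the same reason no replicate could be left out. The pooled intervals limit what can be seen for Zfp36, Atf3 and, at 1 h, Fosb.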
